A study of Rattus norvegicus with 12 samples.

Results

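The cytosolic ribosomal protein genes encode the protein part of the ribosome outside the mitochondria. They were read on Illumina bead arrays from 12 rat hearts. A probe was taken as a member where the array's annotation gave it a symbol of the form Rpl or Rps plus a number, with letters such as a, l or x allowed after the number, or the symbol Rpsa, Rplp0, Rplp1, Rplp2 or Fau. Kinases of the Rps6k type and Rps19bp1, a binding protein, were left out. The rule took 67 of 22523 probes, which stand for 66 of 13337 gene symbols on the array, since Rps9 had 2 probes. By role, 24 probes stood for proteins of the small subunit, 35 for proteins of the large subunit and 3 for the stalk (Rplp0, Rplp1 and Rplp2). Another 3 stood for paralogs (Rpl3l, Rpl22l1 and Rpl7l1) and 2 for copy genes (Rpl36al1 and Rpl37l1). No probe was annotated as Fau or Rps27a here.

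The study asked how load placed in one phase of the heartbeat acts on gene expression, and its title names the left ventricle. The 3 groups were 4 hearts under phasic systolic overload (SO), 4 hearts under phasic diastolic overload (DO) and 4 control hearts (CN) that received no load in either phase. All came from Sprague-Dawley rats, an outbred laboratory stock, and all arrays carried biotin-labelled cRNA made from total RNA of heart. Age, sex, duration of loading, chamber and array slide are not in the labels. Whether the hearts of a group are of different animals is not stated either, so the p-values here cover sample-to-sample spread that may be technical.

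A ribosome joins a small subunit, which reads the mRNA, to a large subunit, which forms peptide bonds and lets the chain out through its exit tunnel. The mRNAs of mammalian ribosomal proteins usually start with a C inside a run of pyrimidines, the terminal oligopyrimidine (TOP) tract, through which the kinase mTOR controls how much they are translated, so much of their control lies beyond the mRNA level that an array reads. In the heart, growth under load is known to go with more ribosomes per muscle cell, through ribosomal RNA synthesis and factors such as Myc and mTOR.

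Starts of 10 member genes are shown because they are the stalk genes, the small-subunit genes with the highest rank in the comparisons, and pairs of a ribosomal protein and its paralog. Each line holds 15 bases before and 15 bases from the annotated start of the first promoter listed for the gene in RefSeq (build GRCr8). Bases run 5′ to 3′ on the gene's strand, with the longest run of C and T in capitals. This annotated start can lie inside the gene, as for Rpl22, whose gene begins at 168114432 on the plus strand.
Rplp0: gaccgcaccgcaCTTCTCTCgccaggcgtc
Rplp1: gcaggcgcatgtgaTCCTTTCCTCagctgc
Rplp2: CCTTTCgccgccggacgccgccgaggtcgc
Rps3: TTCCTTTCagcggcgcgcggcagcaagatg
Rps23: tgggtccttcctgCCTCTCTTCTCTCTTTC
Rps27: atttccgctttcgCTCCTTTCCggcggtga
Rpl22: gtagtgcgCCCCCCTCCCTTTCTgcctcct
Rpl22l1: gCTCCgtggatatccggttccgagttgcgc
Rpl3: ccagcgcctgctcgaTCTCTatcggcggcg
Rpl3l: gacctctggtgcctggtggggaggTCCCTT
The windows lie at chr12:46718376-46718405 (minus strand) for Rplp0, chr8:71290858-71290887 (minus) for Rplp1 and chr1:205975906-205975935 (plus) for Rplp2. Those of the small-subunit genes lie at chr1:163195762-163195791 (minus) for Rps3, chr2:23814502-23814531 (plus) for Rps23 and chr2:177964592-177964621 (minus) for Rps27. The window of Rpl22 is chr5:168117946-168117975 (plus) and that of Rpl22l1 is chr2:113683181-113683210 (plus). The window of Rpl3 is chr7:113507976-113508005 (minus) and that of Rpl3l is chr10:14258431-14258460 (plus).

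The longest pyrimidine run crossed or touched the annotated start in Rplp0, Rplp1, Rps23, Rps27, Rpl22 and Rpl3, and that of Rps23 had 17 bases in the window. In Rplp2, Rps3, Rpl22l1 and Rpl3l the longest run in the window did not reach the start. Of the 66 member symbols, 54 had a promoter in the RefSeq table. A C at the annotated start, followed by at least 4 letters that are C or T, was found in 21 of those 54 genes (38.9%), against 442 of the 18951 other protein-coding genes in that table (2.33%). A run of at least 6 C or T letters within 20 bases of the start was found in 46 of the 54 (85.2%), against 35.2% of the other genes. The letters TATAAA, searched on both strands over 300 bases, were found in 5 of the 54 (9.26%), against 13.1% of the other genes. The letters CCGGAAG, searched on both strands, were found in 17 of the 54 (31.5%), against 11.2%. Matches of CCGGAAG and TATAAA cannot overlap each other, but CCGGAAG can share letters with a pyrimidine run. These motifs were chosen after the sequences had been seen, a match is a description only, and annotated starts can miss the start used in the heart.

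Ribosomal protein probes were among the brightest on the arrays. After background correction and quantile normalization to the log2 scale, 52 of 67 (77.6%) lay above the 95th percentile of all probes by mean level, and 27 lay above the 99th percentile. Their median rank was 98.8%. The probe of Rplp0, the stalk's base protein, averaged 14.91 ± 0.035 in SO hearts, 14.87 ± 0.019 in DO hearts and 14.79 ± 0.093 in CN hearts (log2 intensity, SD, n = 4 each). A total of 32 member probes had a mean raw intensity of at least 10000, where the highest value of any probe was 37437.3, so their differences may be compressed near the top of the range. A probe's brightness depends on its sequence as well as on its mRNA, so these ranks describe the probes and not the order of the mRNA levels.

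Raw medians per array ran between 86.3 and 115.5, and 41.1% to 44.1% of probes were detected per array (detection p under 0.05). Of the 67 member probes, 61 were detected on all 12 arrays and 62 on at least 4 arrays, which was the filter for testing. All 8 cardiomyocyte markers looked for were detected on all arrays. Fibroblast and macrophage marker scores, and the smooth muscle and pericyte score from 1 tested marker, were highest in the heart DO 1. The values of that heart are given beside the family's.

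**Figure D1:**
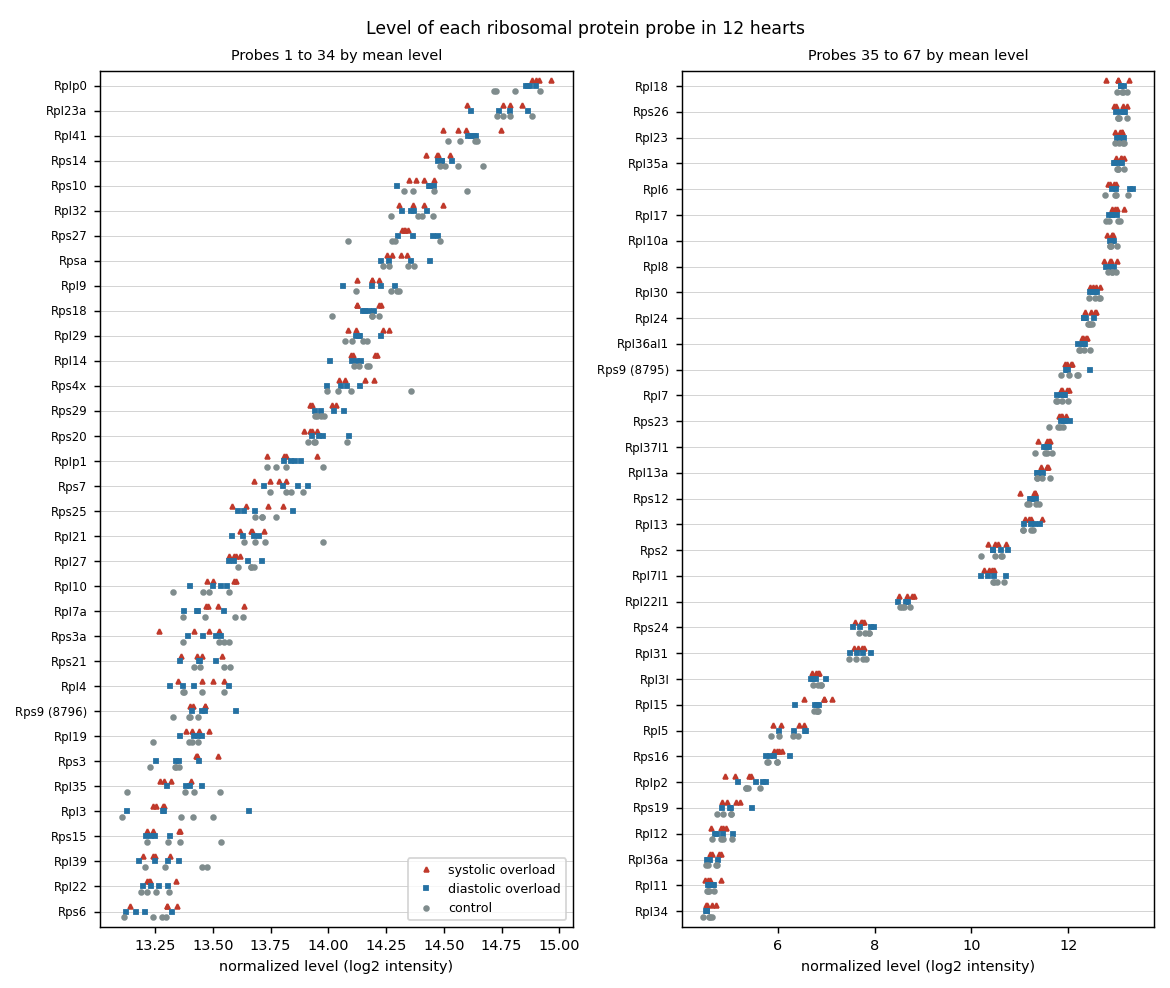
Log2 intensity (horizontal axis) of the 67 ribosomal protein probes (vertical axis, ordered by mean level in 2 panels) in each of 12 hearts, with symbols for SO, DO and CN. The symbols of the 3 groups lie on top of each other for nearly all probes, and 54 of the 62 tested probes spanned less than 0.5 over all 12 hearts.

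The comparison of SO hearts with CN hearts asks what load in systole does to these mRNAs. Among the 62 tested ribosomal protein probes, 32 had a higher mean in SO hearts (51.6%, against 51.5% of all tested probes) and 30 a lower one. The median log2 difference was 0.0049, against 0.0050 over all 10234 tested probes, and the members ranged between -0.21 (Rplp2) and 0.14 (Rps3). No ribosomal protein probe passed an adjusted p of 0.05 in limma, and neither did any of the 10234 probes (0% called). At an unadjusted p under 0.05 the count was 0 of 62 members, against 593 of all probes (5.79%). The smallest adjusted p was 0.813 among the members and 0.517 over all probes.

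DO hearts against CN hearts ask the same of load in diastole. Here 31 members had a higher mean in DO hearts (50%, against 49.2% of all probes) and 31 a lower one, with a median of -0.0011 against -0.0025 over all probes. The range ran between -0.11 (Rpl21) and 0.22 (Rpl5). Again 0 of 62 members and 0% of all probes passed the adjusted threshold in limma, and at an unadjusted p under 0.05 it was 0 members against 562 probes (5.49%). The smallest adjusted p was 0.92 among the members and 0.344 over all probes.

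The third comparison sets systolic against diastolic load directly. In SO hearts 27 members had a higher mean than in DO hearts (43.5%, against 52.2% of all probes) and 35 a lower one, with a median of -0.010 against 0.0070 over all probes. The range ran between -0.32 (Rplp2) and 0.19 (Rpl15). None of the 62 members, and 0% of all probes, passed the adjusted threshold in limma, and 1 member (Rplp2) had an unadjusted p under 0.05, against 647 of all probes (6.32%). The smallest adjusted p was 0.788 among the members and 0.499 over all probes.

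What the arrays could bound is given by the 95% intervals of the log2 differences. In SO against CN hearts, the whole interval lay within a 1.25-fold difference either way for 54 of 62 members (87.1%), against 31.7% of all tested probes. In DO against CN hearts it was again 54 (87.1%), against 33.3% of all probes, and in SO against DO hearts 56 (90.3%), against 33.3%. Intervals within 1.5-fold were found for 62, 61 and 61 members in these 3 comparisons, against 83.7%, 83.8% and 83.4% of all probes. All 62 members had intervals within 2-fold in each comparison, where 97.2%, 97.3% and 97.2% of all probes did. Bright probes had narrower intervals in general. At log2 levels of 12 and above, the interval lay within 1.25-fold for 44 of 46 members and 72.9% of the 571 other tested probes in SO against CN hearts, for 45 of 46 and 73.7% in DO against CN hearts, and for 43 of 46 and 76.9% in SO against DO hearts. At levels of 10 to 12 it did so for 7 of 8 members and 59.5% of 1206 others in SO against CN hearts. In DO against CN hearts it was 4 of 8 and 62.2%, so the members' share was the lower one there. In SO against DO hearts it was 8 of 8 and 61%.

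These bounds hold under quantile normalization, which gives each array the same distribution of values. With arrays scaled by their medians, and differences taken relative to the median of all tested probes, the interval lay within 1.25-fold for 26, 27 and 35 of the 62 members in the 3 comparisons, against 8.27%, 8.37% and 10.3% of all probes. It lay within 1.5-fold for 60, 61 and 60 members and within 2-fold for all 62. The relative difference under median scaling fell outside the quantile-based interval for 4 members in SO against CN hearts (Rpl23a, Rpl41, Rplp0 and Rps14), for 2 in DO against CN hearts (Rpl23a and Rplp0) and for 0 in SO against DO hearts. Rpl23a and Rpl41 were named after their values were seen. In RNA from heart tissue, fewer cells of a type and less RNA per cell cannot be told apart.

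**Figure D2:**
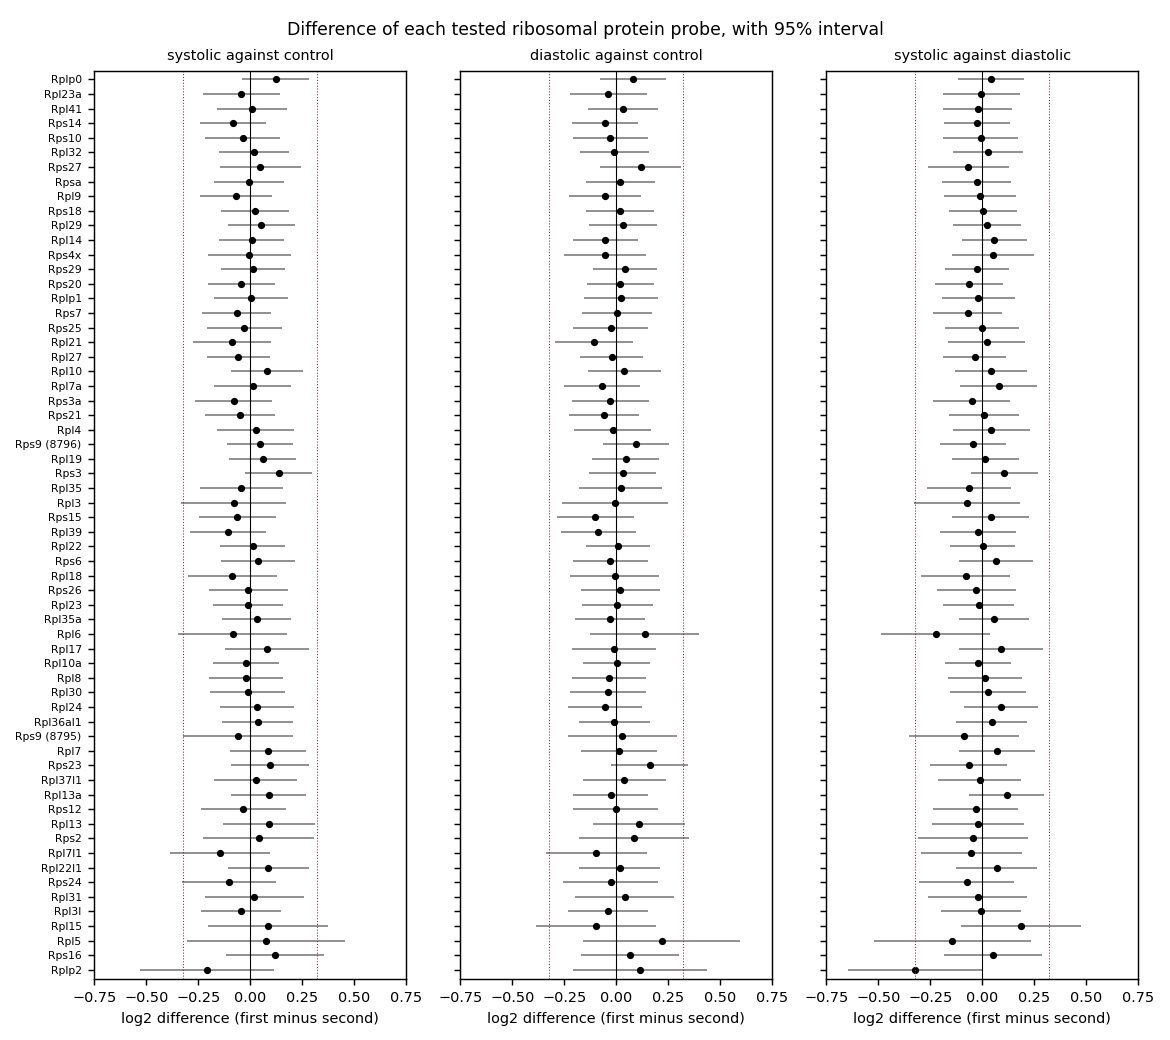
Log2 differences (horizontal axis) of the 62 tested ribosomal protein probes with their 95% intervals, in panels for SO against CN, DO against CN and SO against DO. Dotted lines mark a 1.25-fold difference either way, which contains the whole interval of 54, 54 and 56 probes in the 3 panels under quantile normalization.

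Proteins of the small subunit belong to the part of the ribosome that reads the mRNA. Of their 23 tested probes, 9 were higher and 14 lower in SO than in CN hearts (median -0.010), 13 were higher and 10 lower in DO than in CN hearts (median 0.016), and 7 were higher and 16 lower in SO than in DO hearts (median -0.027). No probe passed the test in any of the 3 comparisons.

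Rps3, a protein at the channel where the mRNA enters, had the smallest p of all members in SO against CN hearts. Its log2 intensity was 13.43, 13.52, 13.43 and 13.43 in SO hearts, 13.44, 13.35, 13.34 and 13.25 in DO hearts, and 13.34, 13.34, 13.36 and 13.23 in CN hearts. All 4 SO hearts lay above all 4 CN hearts, which made it the 1 member of 62 whose SO and CN groups did not overlap, against 3.5% of all tested probes. Groups that do not overlap were found for 0 members in DO against CN hearts (2.78% of all probes) and for 0 in SO against DO hearts (3.13%). The difference of Rps3 was 0.14 ± 0.075 (SE; 95% interval -0.025 to 0.30), a 1.10-fold ratio, with an adjusted p of 0.813 in limma. Against DO hearts its difference was 0.11, and the DO hearts overlapped both other groups.

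Rps23, which lies at the decoding centre, had the smallest p among members in DO against CN hearts. It read 11.84, 11.95, 11.88 and 11.80 in SO hearts, 11.92, 11.93, 12.04 and 11.85 in DO hearts, and 11.78, 11.89, 11.83 and 11.60 in CN hearts. The heart CN 4 was the lowest of the 12, and the DO and CN groups overlapped. The DO minus CN difference was 0.16 ± 0.086 (SE; interval -0.027 to 0.35), with an adjusted p of 0.92 in limma, and without CN 4 it was 0.10.

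Rps27, a zinc-finger protein of the small subunit, read 14.33, 14.34, 14.32 and 14.33 in SO hearts, 14.48, 14.37, 14.45 and 14.30 in DO hearts, and 14.48, 14.29, 14.27 and 14.09 in CN hearts. The SO hearts lay close together and inside the CN range. Its differences were 0.048 for SO minus CN, 0.12 for DO minus CN and -0.068 for SO minus DO. The heart CN 4 was the lowest of the 12, and without it the SO minus CN difference was -0.017 and the DO minus CN difference 0.054. Rps14 read 14.48, 14.47, 14.42 and 14.53 in SO hearts, 14.54, 14.49, 14.48 and 14.49 in DO hearts, and 14.51, 14.67, 14.48 and 14.56 in CN hearts. The groups overlapped, with a SO minus CN difference of -0.081. With arrays scaled by their medians that difference was -0.023, which lay 0.14 above the median of all tested probes (-0.17), and without the heart CN 4 it lay 0.044 above it. Rps15 read 13.24, 13.35, 13.21 and 13.36 in SO hearts, 13.25, 13.23, 13.21 and 13.31 in DO hearts, and 13.31, 13.36, 13.54 and 13.21 in CN hearts. The heart CN 3 stood highest for Rps15, and the DO minus CN difference was -0.10.

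Rps6, the protein phosphorylated by the S6 kinases downstream of mTOR, had group means close together. Its values were 13.34, 13.30, 13.30 and 13.14 in SO hearts, 13.32, 13.17, 13.12 and 13.21 in DO hearts, and 13.28, 13.24, 13.12 and 13.30 in CN hearts, and all 3 groups overlapped. The difference was 0.038 for SO minus CN (interval -0.14 to 0.22) and -0.029 for DO minus CN (interval -0.21 to 0.15). Rpsa, also known as the laminin receptor, averaged 14.30 ± 0.039 in SO hearts, 14.32 ± 0.096 in DO hearts and 14.30 ± 0.063 in CN hearts. Rps4x, an X-linked member, averaged 14.12 ± 0.070 in SO hearts, 14.07 ± 0.059 in DO hearts and 14.12 ± 0.163 in CN hearts. For both genes the group means differed by less than the spread of the hearts. Rps16, read by a dim probe, had a SO minus CN difference of 0.12 with an interval of -0.12 to 0.36, so its bound was wider. The SO minus DO differences of Rps7 and Rps20 were -0.070 and -0.064.

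The 2 Rps9 probes give a check within 1 gene. The brighter probe read 13.40, 13.42, 13.46 and 13.46 in SO hearts, 13.60, 13.46, 13.45 and 13.41 in DO hearts, and 13.43, 13.40, 13.33 and 13.40 in CN hearts. The dimmer probe read 12.05, 11.97, 12.07 and 11.93 in SO hearts, 12.46, 11.95, 11.99 and 11.97 in DO hearts, and 12.19, 12.19, 12.01 and 11.86 in CN hearts. Both probes were highest in the heart DO 1. Their SO minus CN differences had opposite signs, 0.047 for the brighter and -0.058 for the dimmer probe, which lay well inside the intervals of either.

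Proteins of the large subunit belong to the part of the ribosome that forms peptide bonds and holds the exit tunnel. Of their 31 tested probes, 18 were higher and 13 lower in SO than in CN hearts (median 0.011), 13 were higher and 18 lower in DO than in CN hearts (median -0.0091), and 17 were higher and 14 lower in SO than in DO hearts (median 0.013). No probe passed the test in any of the 3 comparisons.

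Rpl5, which with Rpl11 can bind the p53 ligase MDM2 when ribosome assembly is disturbed, had the highest DO minus CN difference of the family at 0.22, with an interval of -0.16 to 0.60. It read 5.89, 6.07, 6.54 and 6.44 in SO hearts, 6.03, 6.56, 6.33 and 6.58 in DO hearts, and 6.03, 6.32, 5.86 and 6.42 in CN hearts. This dim probe had the largest SD between hearts within groups of all tested members, 0.27, and all 3 groups overlapped. Rpl6 read 12.81, 12.95, 12.85 and 12.99 in SO hearts, 12.98, 12.90, 13.27 and 13.34 in DO hearts, and 12.76, 12.99, 13.23 and 12.96 in CN hearts. Its high values stood in DO 3, DO 4 and CN 3. The SO minus DO difference of Rpl6 was -0.22, with an adjusted p of 0.864 in limma.

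Rpl21 read 13.72, 13.67, 13.66 and 13.62 in SO hearts, 13.70, 13.58, 13.63 and 13.68 in DO hearts, and 13.72, 13.64, 13.68 and 13.98 in CN hearts. The heart CN 4 alone stood above the rest, and the differences were -0.087 for SO minus CN and -0.11 for DO minus CN, against -0.013 and -0.034 without CN 4. Rpl39, a small protein in the wall of the exit tunnel, read 13.20, 13.24, 13.25 and 13.31 in SO hearts, 13.35, 13.25, 13.31 and 13.18 in DO hearts, and 13.29, 13.48, 13.45 and 13.21 in CN hearts. CN 2 and CN 3 were the highest 2 of the 12 hearts, and the SO minus CN difference was -0.11.

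Rpl13a read 11.55, 11.58, 11.43 and 11.57 in SO hearts, 11.45, 11.38, 11.48 and 11.36 in DO hearts, and 11.45, 11.35, 11.61 and 11.36 in CN hearts. Its SO minus DO difference was 0.12, and SO 3 lay inside the DO range. Rpl15, a dim probe, read 6.95, 7.12, 6.54 and 6.94 in SO hearts, 6.86, 6.36, 6.78 and 6.81 in DO hearts, and 6.83, 6.81, 6.75 and 6.81 in CN hearts. SO 3 and DO 2 stood low while the 4 CN hearts lay close together, and the SO minus DO difference was 0.19 with an interval of -0.10 to 0.47. Rpl10, an X-linked protein that joins the large subunit late in its maturation, averaged 13.54 ± 0.064 in SO hearts, 13.50 ± 0.071 in DO hearts and 13.46 ± 0.101 in CN hearts. Rpl3, next to the peptidyl transferase centre, averaged 13.27 ± 0.024 in SO hearts, 13.34 ± 0.225 in DO hearts and 13.35 ± 0.170 in CN hearts. In both genes the groups overlapped. Among the other large-subunit probes with small p, the SO minus DO differences were 0.089 for Rpl24, 0.092 for Rpl17 and 0.079 for Rpl7a, and the DO minus CN difference of Rpl13 was 0.11.

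The stalk is the flexible arm of the large subunit that recruits translation factors. Rplp0 read 14.96, 14.90, 14.91 and 14.88 in SO hearts, 14.85, 14.86, 14.90 and 14.87 in DO hearts, and 14.92, 14.81, 14.73 and 14.72 in CN hearts. CN 3 and CN 4 were the lowest of the 12 hearts and CN 1 lay inside the SO range. The SO minus CN difference was 0.12 (interval -0.038 to 0.28), with an adjusted p of 0.845 in limma. Under median scaling the same difference stood 0.38 above the median of all tested probes, and that of DO minus CN 0.27 above it, against 0.23 and 0.12 without the heart CN 4, so the size of the Rplp0 difference depended on the scaling and on that heart. Rplp1 read 13.82, 13.95, 13.73 and 13.81 in SO hearts, 13.85, 13.81, 13.84 and 13.88 in DO hearts, and 13.77, 13.82, 13.98 and 13.73 in CN hearts. The 3 groups of Rplp1 overlapped fully, with a SO minus CN difference of 0.0036.

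Rplp2, the partner of Rplp1 on the stalk, was the one member with an unadjusted p under 0.05. It read 4.91, 5.41, 5.45 and 5.11 in SO hearts, 5.18, 5.55, 5.76 and 5.68 in DO hearts, and 5.35, 5.63, 5.39 and 5.35 in CN hearts. The SO and DO groups overlapped, since DO 1 lay below SO 2 and SO 3. The SO minus DO difference was -0.32 with an interval of -0.64 to -0.00095, and the adjusted p was 0.788 in limma. This probe was near background, with a median raw intensity of 106.5, and was detected on 9 of 12 arrays, so it is a weak measure of Rplp2 mRNA.

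The 3 paralogs were measured, each beside the protein it resembles. Rpl3l, the paralog of Rpl3 made mainly in heart and skeletal muscle, read 6.83, 6.78, 6.85 and 6.70 in SO hearts, 6.74, 6.79, 7.00 and 6.67 in DO hearts, and 6.90, 6.90, 6.83 and 6.73 in CN hearts. All 3 groups overlapped. This probe was dim, with a mean raw intensity of 179.3, though detected on all 12 arrays. The differences of Rpl3l were -0.046 for SO minus CN (interval -0.24 to 0.15), -0.039 for DO minus CN (interval -0.23 to 0.15) and -0.0068 for SO minus DO (interval -0.20 to 0.19). For Rpl3 they were -0.080, -0.0067 and -0.073.

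Rpl22l1, the paralog of Rpl22, read 8.77, 8.51, 8.68 and 8.81 in SO hearts, 8.67, 8.65, 8.68 and 8.49 in DO hearts, and 8.72, 8.60, 8.53 and 8.57 in CN hearts. Rpl22 itself averaged 13.25 ± 0.058 in SO hearts, 13.25 ± 0.046 in DO hearts and 13.24 ± 0.052 in CN hearts. Groups overlapped for both genes, and the SO minus CN differences were 0.087 for Rpl22l1 and 0.011 for Rpl22. Rpl7l1, found in precursors of the large subunit in human cells, read 10.42, 10.25, 10.37 and 10.46 in SO hearts, 10.72, 10.46, 10.34 and 10.19 in DO hearts, and 10.46, 10.52, 10.44 and 10.67 in CN hearts. Its SO minus CN difference was -0.15 with an adjusted p of 0.895 in limma, and that of Rpl7 was 0.085. SO 4 lay above CN 3, so the groups of Rpl7l1 overlapped. The copy genes Rpl36al1 and Rpl37l1 had SO minus CN differences of 0.036 and 0.026.

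Only 5 member probes did not pass the filter. Those of Rpl11, Rpl12, Rpl34 and Rpl36a were detected on none of the 12 arrays and that of Rps19, mutated in Diamond-Blackfan anaemia in humans, on 1. Their median raw intensities ran between 73.0 (Rpl34) and 97.6 (Rps19). A probe not well above background does not give the level of its mRNA. Many ribosomal protein genes also have genes in the genome named after them. In GRCr8, 47 of the 67 member probes had at least 1 gene named as a numbered copy of theirs. These were 145 copy genes in all, with the most for Rpl35a and Rpl31 (11 each). The count rests on symbols and not on sequence, and takes in paralogs such as Rpl22l1 and Rpl7l1. A probe can bind transcripts of copies with a like sequence too, so its value may not be that of 1 gene. Members with a GRCr8 gene (65 of 67 probes) lay on 19 chromosomes.

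For each heart, the deviations of the 62 tested members from their own means over 12 hearts had medians of -0.0070, 0.033, -0.018 and -0.016 in SO hearts, 0.045, -0.022, -0.011 and -0.013 in DO hearts, and -0.010, 0.015, 0.0042 and -0.019 in CN hearts. The 3 groups overlapped in these medians. The heart DO 1 had the highest one and was the highest of 12 hearts for 13 members. That heart also had the highest fibroblast marker score. The score, a mean deviation over 6 of 6 markers detected on all arrays, ranged between -0.30 and 0.14 in SO hearts, -0.29 and 0.91 (DO 1) in DO hearts, and -0.39 and 0.27 in CN hearts. The macrophage score, over 4 of 6 markers, ranged between -0.13 and 0.34 in SO hearts, -0.17 and 0.60 (DO 1) in DO hearts, and -0.48 and -0.16 in CN hearts. All SO hearts lay above all CN hearts in the macrophage score. Beside this score and those below, 3.5% of all tested probes had SO and CN groups without overlap. That share is of single probes, whereas most scores are means over several markers. The endothelial score, over 3 of 6 markers, ranged between -0.37 and 0.0065 in SO hearts, -0.40 and 0.39 in DO hearts, and 0.052 and 0.83 in CN hearts. All SO hearts thus lay below all CN hearts in it. The cardiomyocyte score, over 8 of 8 markers, ranged between 0.010 and 0.075 in SO hearts, -0.058 and 0.12 in DO hearts, and -0.13 and -0.021 in CN hearts, and the skeletal muscle score, which rests on 1 tested marker of 5, between 0.011 and 0.070 in SO hearts, -0.016 and 0.062 in DO hearts, and -0.088 and -0.016 in CN hearts. All SO hearts lay above all CN hearts in both. The 1 tested skeletal muscle marker is Ckm, which is also 1 of the 8 cardiomyocyte markers, so the skeletal muscle score is not a separate result. Other scores overlapped between SO and CN hearts. The lymphocyte score, over 5 of 6 markers with 1 detected on all arrays, ran between -0.47 and 0.11 in SO hearts. It ran between -0.062 and 0.41 in DO and between -0.31 and 0.11 in CN hearts. The erythroid score rests on 2 of 5 markers, with 0 detected on all arrays. It was 0.0063 to 0.12 in SO, -0.65 to 0.20 in DO and -1.05 to 1.26 in CN hearts. The smooth muscle and pericyte score rests on 1 tested marker of 5. It was -0.32 to 0.34 in SO, -0.48 to 0.43 (DO 1) in DO and -0.35 to 0.27 in CN hearts. The part of these cells in the ribosomal protein values was not tested.

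**Figure D3:**
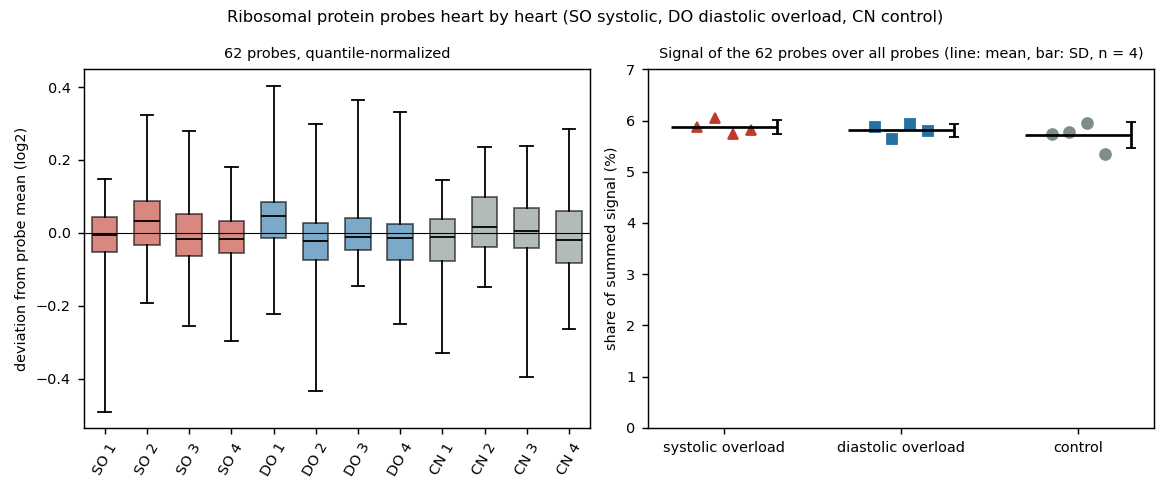
Left, deviations (log2) of the 62 tested ribosomal protein probes from their means over 12 hearts, as a box per heart with whiskers over the full range. Right, share (%) of the summed array signal held by the ribosomal protein probes, with group mean and SD, which was 5.87 ± 0.14 in SO, 5.81 ± 0.12 in DO and 5.71 ± 0.26 in CN hearts.

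Of the summed background-corrected signal of each array, the ribosomal protein probes held 5.88%, 6.06%, 5.73% and 5.82% in SO hearts, 5.87%, 5.64%, 5.93% and 5.80% in DO hearts, and 5.74%, 5.78%, 5.96% and 5.36% in CN hearts. The groups overlapped, and CN 4 was the lowest of the 12. That array also had the highest raw median (115.5) and was the lowest of 12 hearts for 12 members.

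How arrays were scaled moved the whole distribution. With arrays scaled by their medians instead of by quantiles, the median difference of all tested probes was -0.17 for SO minus CN, -0.18 for DO minus CN and 0.014 for SO minus DO. Relative to those shifts, the members' medians were 0.027 (38 higher, 24 lower), -0.019 (25 higher, 37 lower) and 0.045 (41 higher, 21 lower), so the split of higher and lower members depended on the scaling. The 32 members with raw means of at least 10000 had relative medians of 0.062, 0.018 and 0.053 in the 3 comparisons, and the other 226 tested probes that bright had 0.097, 0.040 and 0.059. Other bright probes thus had medians at least as far from 0. Leaving out the heart CN 4 brought the shifts against CN hearts and the relative SO minus CN medians closer to 0. The members' relative DO minus CN median instead moved farther from 0. Without CN 4, the shift of all tested probes was -0.085 for SO minus CN and -0.099 for DO minus CN. The members' relative medians were then 0.0020 (31 higher, 31 lower) and -0.042 (19 higher, 43 lower). Those of the 32 bright members were 0.011 for SO minus CN and -0.036 for DO minus CN without CN 4, and those of the other 226 bright probes 0.037 and -0.025. In the comparison of SO with DO hearts, which does not use CN 4, the values stayed as given. No member passed the adjusted threshold in limma under median scaling either, where the smallest adjusted p of a member was 0.369.

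The spread between hearts within groups was small for these genes. The pooled SD within groups had a median of 0.089 over the 62 members and 0.19 over the other 10172 tested probes, and 59 of 62 members lay under the others' median. Bright probes vary less on these arrays, so members were set beside other probes of like level. At log2 levels of 13 to 14 the median SD was 0.084 for members and 0.10 for others, with 22 of 26 members under the others' median, and at levels of 14 and above it was 0.070 for members and 0.084 for others, with 9 of 13 members under it. At levels of 12 to 13 it was 0.085 against 0.12 (6 of 7), and at 10 to 12 it was 0.11 against 0.13 (5 of 8). Rpl27, a large-subunit protein, varied least, with an SD of 0.043.

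**Figure D4:**
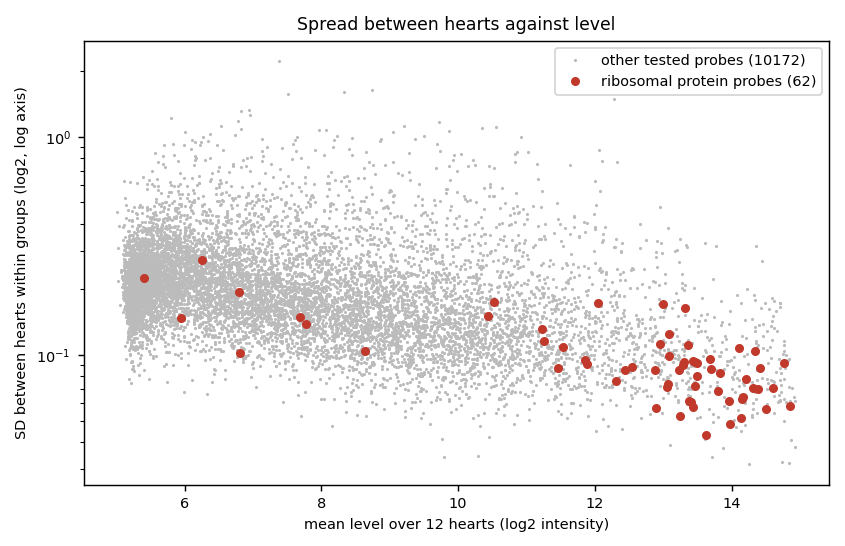
Pooled SD between hearts within groups (vertical axis, log scale) against mean log2 intensity (horizontal axis) for the 62 tested ribosomal protein probes over the 10172 other tested probes. The members gather at the bright end and low in the cloud, with a median SD of 0.089 against 0.19 for the others.

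Members deviated together only weakly. Over the 12 hearts, after group means had been taken out, the median pairwise correlation among the 46 members with a level of at least 12 was 0.095, with 59.2% of pairs positive. Among the 571 other tested probes that bright, it was 0.0044, with 50.4% positive. All pairs share the same 12 arrays and their normalization, and the values are a description.

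Genes that work with ribosomal proteins were set beside them as 5 lists. The lists were chosen by textbook role with earlier results of these arrays known. No gene of any list passed the adjusted threshold in limma in any of the 3 comparisons, where 0% of all probes did. Over all 7348 tested genes, taking 1 probe per gene, the median differences were 0.00085 for SO minus CN, -0.0057 for DO minus CN and 0.0070 for SO minus DO.

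Other translation genes with TOP mRNAs and elongation factors (15 of 20 tested) had medians of 0.036, 0.024 and 0.026 in these comparisons, with 8, 9 and 11 of the 15 higher. By the smallest p, the SO minus CN differences were 0.18 for Eif3h, a subunit of an initiation factor, 0.10 for the elongation factor subunit Eef1b2 and -0.10 for another one, Eef1d. In DO minus CN they were 0.20 for Nap1l1, -0.13 for Eef1d and 0.11 for Eif3h, and in SO minus DO -0.27 for Hnrnpa1, -0.22 for Nap1l1 and 0.13 for the initiation factor Eif4a2. The Hnrnpa1 probe was dim, with a median raw intensity of 137.0.

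Ribosome assembly genes (28 of 36 tested) had medians of -0.0031, 0.0084 and -0.019, with 13, 17 and 9 higher. Within that list, Nop56, a core protein of box C/D snoRNPs, read 7.38, 7.41, 7.24 and 7.44 in SO hearts, 7.06, 7.23, 7.23 and 7.28 in DO hearts, and 6.78, 7.17, 7.27 and 6.83 in CN hearts. SO 3 lay below CN 3, and the SO minus CN difference was 0.36 with an adjusted p of 0.807 in limma. Fbl, the methyltransferase of the same particles, read 10.35, 10.21, 10.32 and 10.26 in SO hearts, 10.68, 10.49, 10.40 and 10.37 in DO hearts, and 10.50, 10.49, 10.48 and 10.66 in CN hearts. All SO hearts lay below all CN and DO hearts for Fbl, with differences of -0.24 for SO minus CN and -0.20 for SO minus DO. Groups without overlap were found for 3.5% of all tested probes in SO against CN hearts and for 3.13% in SO against DO hearts. Bop1, which acts in large-subunit assembly, read 7.54, 7.37, 7.52 and 7.64 in SO hearts, 7.89, 7.88, 7.67 and 7.82 in DO hearts, and 7.83, 7.83, 7.64 and 7.64 in CN hearts. Its SO minus DO difference was -0.30, with an adjusted p of 0.672 in limma. The SO minus CN difference of Bop1 was -0.22, so these 3 assembly genes did not point one way. The DO minus CN differences were -0.36 for Utp20 (adjusted p of 0.879 in limma), which acts in small-subunit assembly, -0.25 for the helicase Ddx21 and 0.19 for Nop56, and the SO minus DO difference of Nob1, which trims the small subunit's RNA, was 0.14. The probes of Utp20 and Ddx21 were dim, with median raw intensities of 121.0 and 123.3, though detected on all 12 arrays.

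RNA polymerase I genes (9 of 13 tested), which make ribosomal RNA, had medians of -0.016, -0.027 and 0.073, with 4, 2 and 8 higher. By the smallest p, the SO minus CN differences were 0.20 for Tbp, the TATA-binding protein, -0.14 for the polymerase subunit Polr1c and 0.16 for Taf1d. In DO minus CN they were -0.22 for Polr1c, -0.19 for Polr1f and -0.10 for Polr1a, and in SO minus DO 0.22 for Tbp, 0.14 for Taf1d and 0.14 for Taf1c. The Tbp probe was dim, with a median raw intensity of 158.9.

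Regulators of growth (13 of 23 tested) had medians of 0.026, -0.021 and -0.015, with 9, 6 and 6 higher. Myc, a transcription factor that drives ribosomal genes, read 9.74, 9.16, 9.50 and 9.61 in SO hearts, 10.19, 9.83, 9.69 and 10.13 in DO hearts, and 10.73, 9.74, 9.92 and 9.55 in CN hearts. CN 1 stood highest and the SO and CN groups overlapped, with a SO minus CN difference of -0.48 (adjusted p of 0.813 in limma). Tsc1, an inhibitor of mTOR signalling, read 6.01, 5.47, 5.80 and 5.70 in SO hearts, 5.38, 4.95, 5.28 and 5.28 in DO hearts, and 5.24, 5.72, 5.26 and 5.51 in CN hearts. All SO hearts lay above all DO hearts, with a difference of 0.52 (adjusted p of 0.637 in limma). SO and DO groups did not overlap for 3.13% of all tested probes. Like that of Rplp2, the Tsc1 probe was near background, with a median raw intensity of 106.5 and detection on 9 of 12 arrays, so it is a weak measure. The SO minus DO difference of Myc was -0.46. Among the other regulators, the SO minus CN difference of Eif4ebp1, a repressor of translation that mTOR switches off, was 0.19, and the DO minus CN differences were 0.24 for Akt1s1, a subunit of the mTOR complex, and 0.24 for Eif4ebp2. For Tsc1 the SO minus CN difference was 0.31 and the DO minus CN difference -0.21, and Akt1s1 had a SO minus DO difference of -0.21. The probes of Akt1s1 and Eif4ebp2 were dim, with median raw intensities of 158.1 and 154.6.

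Genes of ribosomal protein surveillance and ribosome recycling (9 of 15 tested) had medians of -0.080, -0.057 and -0.049, with 2, 3 and 3 higher. Cdkn1a, a p53 target that halts the cell cycle, read 8.68, 8.17, 8.13 and 8.13 in SO hearts, 7.12, 6.78, 6.87 and 8.18 in DO hearts, and 7.81, 7.29, 7.39 and 6.87 in CN hearts. The SO hearts lay above all CN hearts (groups without overlap: 3.5% of all tested probes) and, apart from DO 4, above the DO hearts. The SO minus CN difference was 0.94 (adjusted p of 0.795 in limma) and the SO minus DO difference 1.04 (adjusted p of 0.637), both larger than the difference of any ribosomal protein probe in these comparisons. Pelo, a ribosome rescue factor, had differences of -0.30 for SO minus CN, 0.21 for DO minus CN and -0.51 for SO minus DO. Its partner Hbs1l had differences of -0.17 for SO minus CN and -0.12 for DO minus CN. Mdm2, the ligase of p53, had a DO minus CN difference of 0.38, and Zfp622 a SO minus DO difference of -0.19.

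**Figure D5:**
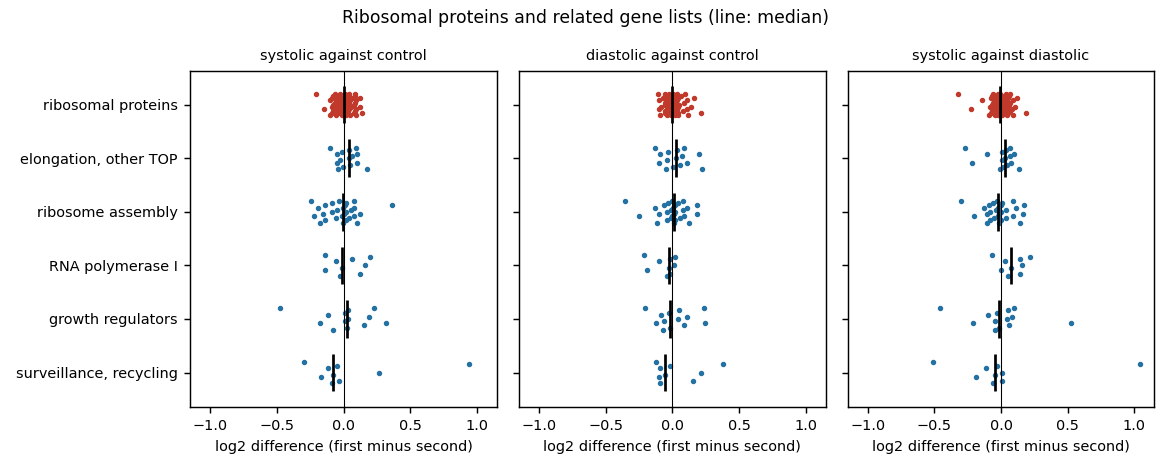
Log2 differences (horizontal axis) of the ribosomal protein probes and of the genes of 5 related lists (vertical axis), in panels for SO against CN, DO against CN and SO against DO, with a line at each median. The ribosomal protein probes lie close to 0 (between -0.32 and 0.22 over the panels), while single genes such as Cdkn1a reach 1.04.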

How the data were processed

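Per the file headers, the deposited table used here holds non-normalized intensity values, 1 per probe and array, and the authors' detection p-value beside each. The software behind it was not given in the sources used here. Every column of values was mapped to a sample by its name, and 0 were left unmapped. Symbols came from the array's annotation, 1 symbol with 2 probes being kept as 2 probes. Gene coordinates and promoters were taken from RefSeq (GRCr8).

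Background correction with negative-control information from the detection p-values, quantile normalization and log2 (limma's neqc, offset 16) were applied to all 12 arrays. Tested were the probes detected (p under 0.05) on 4 arrays or more. One limma model (version 3.58.1, R version 4.3.3) with lmFit and eBayes was fitted to the 3 groups of 4 hearts, with 3 contrasts and Benjamini-Hochberg adjustment over all 10234 tested probes. The threshold was an adjusted p under 0.05. The method was tested on simulated data, with added changes larger than any member difference seen here. That test thus says nothing of how well differences as small as the members' would be found. The number of arrays limits the precision.

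The members and lists were chosen with earlier results of these data known. Genes named are the members past the threshold (there were 0), the 10 member probes with the smallest p in each contrast, a set of members chosen by role (the stalk, Rpsa, Rps6, Rpl3 and the paralog pairs), members not tested, and genes with several probes, plus the 3 genes with the smallest p of each list in each contrast. Rpl27, which varied least, Rpl23a and Rpl41 were named after their values were seen. Rpl36al1 was taken as a member although the rule does not spell out a letter pair followed by a digit. Alternatives were other offsets, filters, background corrections and scalings, the deposited normalized table, array weights, a replicate block and leaving out each heart.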

Additional observations from a re-analysis of the deposited data

Results flagged for a closer look

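Within groups of 4 hearts, 8 of 111 sets of values (7.21%) held 1 heart far from the other 3 by Dixon's criterion, where chance gives about 1 in 20. All values are log2 intensities. Rps3 stood at 13.52 in SO 2, with the other SO hearts at 13.43, and at 13.23 in CN 4, with the other CN hearts between 13.34 and 13.36. Rplp2 stood at 5.63 in CN 2, with the others between 5.35 and 5.39. Rpl15 stood at 6.36 in DO 2, with the others between 6.78 and 6.86. Rpl22l1 stood at 8.49 in DO 4, with the others between 8.65 and 8.68. Rpl22 stood at 13.34 in SO 1, with the others between 13.22 and 13.23. The dimmer Rps9 probe stood at 12.46 in DO 1, with the others between 11.95 and 11.99. The median deviation of the 62 members stood at 0.045 in DO 1, with the other DO hearts between -0.022 and -0.011. Each of these hearts was kept in all comparisons.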

How the results depend on the processing

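In all 21 alternatives named in the processing, 0 ribosomal protein probes and 0 of all probes passed the adjusted threshold in limma, including the fits that left out 1 heart each (0 to 0). The smallest adjusted p of any named member was 0.369, and at an unadjusted p under 0.05 the members numbered 0 to 2 for SO against CN, 0 to 7 for DO against CN and 0 to 2 for SO against DO, against 472 to 1254, 388 to 1369 and 333 to 1328 of all probes. The members' median log2 difference moved under median scaling to -0.14 (SO minus CN), -0.20 (DO minus CN) and 0.059 (SO minus DO). Minus the all-probe median, an alternative added after seeing the data, it was 0.045 for SO minus DO, and without CN 4 as well, likewise added, 0.0020, -0.042 and 0.045 in the 3 comparisons. No calls were counted in the added alternatives. Over the 24 members with raw means under 10000 in every group, also added after seeing the data, it was 0.030 for SO minus CN. Leaving out 1 heart at a time, it ran between -0.015 and 0.011 for SO minus CN, -0.019 and 0.018 for DO minus CN, and -0.012 and 0.018 for SO minus DO. Of 2202 recomputed values of named members, 61 moved by at least 1 SD, all under median scaling, and the cause was not tested. Whether the replicate numbers pair the hearts is not in the labels. Of 12 same-numbered pairs, 2 had deviations correlated above 0.1 (range -0.27 to 0.33). A heart correlated best with its own number in 6 of 24 combinations. These values showed no clear pairing and cannot exclude one. With the replicate block 0 probes passed. In this balanced design the block cannot move the group differences, so the members' medians of 0.0049, -0.0011 and -0.010 were fixed by it and say nothing of stability.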
